A study of Mus musculus with 18 samples.

Results

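Keratins are the intermediate filament proteins of epithelial cells, and 6 of them were followed here: KRT7, KRT8, KRT14, KRT17, KRT18 and KRT19. They were taken by name, as every array probe that carries 1 of these 6 gene names, which gave 6 probes (1 per gene) among 30854 gene names in the table. Murine embryonic stem (ES) cells were grown for 3 days on PA6 cells, a bone marrow stromal line, in serum-free medium (ES/PA6 co-cultures), and PA6 cells were kept alone in the same way (PA6 mono-cultures). Each culture type received no growth factor (-GFs), FGF2 at 20 ng/ml or BMP4 at 10 ng/ml, with 3 replicates in each of the 6 groups. A biological replicate was 1 well of each condition. By the study's methods the ES cells, in every co-culture group alike, carried a knock-in of EGFP driven by the τ promoter and had been kept on mouse embryonic fibroblasts beforehand. The sources disagree on BMP4: the labels of the arrays, followed here, state a higher dose than the methods do for slide cultures. RNA of a co-culture holds both cell types, and in such bulk RNA fewer cells of a kind and less RNA per cell cannot be told apart.

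A keratin filament is built from pairs, each of a type II and a type I chain. KRT8 (type II) and KRT18 (type I) are the first pair to appear in the embryo and form the filaments of simple epithelia. KRT7 (type II) and KRT19 (type I) join them in ducts and other simple epithelia and in trophectoderm, the outer layer of the blastocyst. KRT14 and KRT17 are type I chains of surface ectoderm and skin: KRT14 marks the basal layer of stratified epithelia, and KRT17 is made in the early periderm and in skin appendages. BMP signalling is known to favour surface ectoderm over neural tissue in the embryo.

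In the mouse genome (RefSeq, GRCm38.p6) the genes of KRT8 and KRT18 are neighbours on chromosome 15, with 0 protein-coding genes between them, and KRT7 lies on the same chromosome with 23 such genes between it and KRT8. KRT14, KRT17 and KRT19 lie together on chromosome 11, with 1 protein-coding gene between KRT14 and either of the other two. The 250 bases before the RefSeq start are shown for the KRT8 and KRT18 pair and for KRT7, the 3 members on chromosome 15, because their probes were detected on all 9 co-culture arrays. KRT8 covers chr15:102004343-102004592 on the - strand, KRT18 chr15:102027966-102028215 on the + strand and KRT7 chr15:101412153-101412402 on the + strand. They are written 5′ to 3′ on the gene's own strand, and capitals mark the motifs found.
KRT8: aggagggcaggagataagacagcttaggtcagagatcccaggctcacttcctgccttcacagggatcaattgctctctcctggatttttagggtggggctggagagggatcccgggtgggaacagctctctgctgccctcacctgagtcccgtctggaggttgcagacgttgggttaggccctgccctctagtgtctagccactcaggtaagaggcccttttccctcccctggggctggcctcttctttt
KRT18: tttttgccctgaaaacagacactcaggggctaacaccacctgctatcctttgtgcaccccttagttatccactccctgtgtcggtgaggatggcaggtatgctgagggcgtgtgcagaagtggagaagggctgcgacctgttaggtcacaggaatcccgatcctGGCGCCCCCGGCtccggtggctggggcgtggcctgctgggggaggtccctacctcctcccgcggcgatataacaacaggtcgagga
KRT7: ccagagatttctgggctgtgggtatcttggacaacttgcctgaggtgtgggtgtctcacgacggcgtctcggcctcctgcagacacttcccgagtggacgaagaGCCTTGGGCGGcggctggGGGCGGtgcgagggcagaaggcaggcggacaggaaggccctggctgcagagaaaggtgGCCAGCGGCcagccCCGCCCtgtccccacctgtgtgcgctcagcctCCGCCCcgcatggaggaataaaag
Motifs searched on both strands were the TATA box (TATAAA), the GC box (GGGCGG), an AP-1 site (TGANTCA), an AP-2 site (GCCNNNGGC) and a GC-rich SMAD site (GGCGCC). The KRT7 window held 4 GC boxes and 2 AP-2 sites, the first of which overlaps a GC box. The KRT18 window held 1 AP-2 site and 1 SMAD site that overlap each other, and the KRT8 window held 0 of the 5 motifs. Of 32851 promoter windows of the same length, 32.7% held a GC box, 13.7% an AP-2 site, 9.59% a SMAD site, 12.4% a TATA box and 6.75% an AP-1 site. These matches describe letters and say nothing of binding. The RefSeq table also had an entry for KRT14, but its start lies 1480 bases inside the gene, so that window is not shown. KRT17 and KRT19 had no entry.

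Values below are background-corrected, quantile-normalized log2 intensities of a probe, and a probe was detected on an array where its deposited detection p was under 0.05. Brightness depends on the probe, so levels are compared between arrays and never between genes. A change was called where limma's adjusted p, taken over all 16446 tested genes, was below 0.1 and the log2 fold change passed 1 in either direction. Across the series, the co-culture arrays each detected 19365 to 20412 probes and the PA6 arrays 17125 to 18391. Pluripotency markers were present in the co-cultures as labelled: all 8 genes of that list were called higher in ES/PA6 than in PA6 in -GFs, and 6 of the 8 were below detection on the 3 PA6 -GFs arrays, POU5F1 and DPPA5A being the others. The list of PA6 stroma genes was lower in the co-cultures in 8 of 11. Of all genes, 39% were called there in either direction and 19.4% were called higher.

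The keratins were signals of the co-cultures. KRT8, KRT14, KRT17, KRT18 and KRT19 were not detected on any of the 9 PA6 arrays, whichever growth factor was present. KRT7 was the exception, detected on 1 of 3 PA6 arrays in -GFs, on 1 of 3 with FGF2 and on 2 of 3 with BMP4. Its PA6 values were 6.19, 6.26 and 5.55 in -GFs, 6.56, 6.12 and 6.26 with FGF2 and 5.69, 6.52 and 6.41 with BMP4. Those 3 groups overlapped, and BMP4 vs -GFs in PA6 gave 0.20 ± 0.224 (SE; adjusted p 0.838 by limma, 95% interval -0.27 to 0.68) for KRT7. No member was called in any comparison within PA6 (0 of 6 in each, and 0 of 6 at an unadjusted p under 0.05). The background there was 5.27% of genes for FGF2 vs -GFs, 1.41% for BMP4 vs -GFs and 5.82% for FGF2 vs BMP4.

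**Figure D1:**
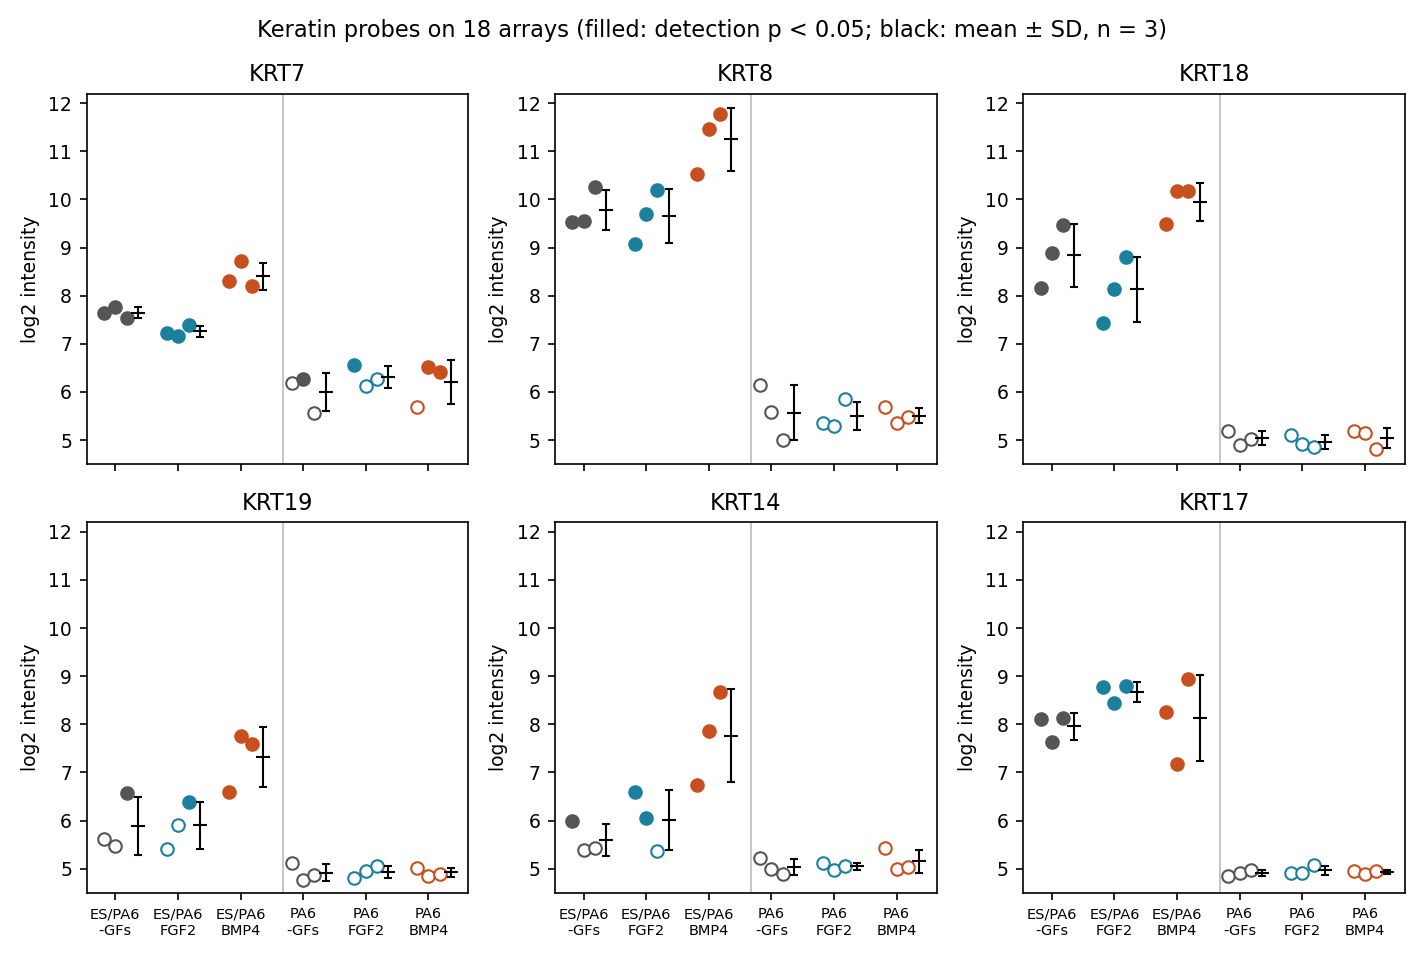
Log2 intensity of the 6 keratin probes on each of the 18 arrays (y axis), by culture type and growth factor (x axis). Filled points were detected on that array, open points were not, and black bars show mean ± SD (n = 3). Open points fill the PA6 side of every panel except KRT7, and the BMP4 co-cultures stand highest for every gene but KRT17.

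Set against PA6 in the same medium, the co-cultures were higher for 4 of 6 keratins in -GFs, 3 of 6 with FGF2 and 6 of 6 with BMP4. Of all genes, 19.4%, 18.7% and 19% were called higher in these comparisons, and the median of all genes lay at -0.11, -0.14 and -0.13. The median over the 6 keratins was 2.34, 2.07 and 2.91. In each of the 3 media all 6 keratins had every co-culture array above every PA6 array, as had 32.8%, 32.1% and 32.2% of all genes. KRT8, KRT14, KRT17, KRT18 and KRT19 passed the filter, detection on at least 3 of 18 arrays, only through co-culture arrays. Genes kept in this way had to be higher in some co-culture group, so these counts and medians are a description. Because most PA6 values were below detection, folds are given as lower bounds. KRT8 was at least 11.2-fold higher in -GFs (adjusted p 2.32e-08), at least 10.5-fold with FGF2 (3.19e-08) and at least 33.3-fold with BMP4 (5.93e-10). KRT18, its filament partner, was at least 5.80-fold, 3.65-fold and 13.4-fold higher. KRT17 was at least 3.17-fold, 5.30-fold and 3.83-fold higher.

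KRT7 was higher in ES/PA6 than in PA6 by 1.64 ± 0.224 (SE) on the log2 scale in -GFs (adjusted p 6.98e-06) and by 2.20 ± 0.224 with BMP4 (2.77e-07). With FGF2 its difference was 0.94, below the fold threshold. The -GFs call of KRT7 was lost in both normalizations that skip background correction (0.90 with quantile, 0.91 with cubic spline). KRT14 and KRT19 passed both thresholds in the BMP4 co-cultures, with bounds of at least 2.97-fold over PA6 for KRT14 and at least 2.18-fold for KRT19. In -GFs each was detected on 1 of 3 co-culture arrays and on no PA6 array, and neither gave a fold bound above 1. Fitted differences of KRT14 and KRT19 in -GFs and FGF2 are therefore against values below background and decide only the call. They were 0.57 for KRT14 (adjusted p 0.188) and 0.97 for KRT19 (adjusted p 0.0114) in -GFs. KRT19 passed the fold threshold without ES/PA6 -GFs replicate 1 (1.10) or 2 (1.18) or PA6 -GFs replicate 1 (1.07). With FGF2, calls were also made without single arrays: KRT19 without ES/PA6 FGF2 replicate 1 (1.21) or PA6 FGF2 replicate 3 (1.03), KRT14 without ES/PA6 FGF2 replicate 3 (1.28), and KRT7 without PA6 FGF2 replicate 1 (1.07).

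BMP4 vs -GFs in the co-cultures asked which keratins the growth factor moved. KRT14, KRT8 and KRT19 rose, 3 of the 6, where 0.31% of all 16446 genes were called higher, and no keratin fell. In 5 of the 6 genes every BMP4 array lay above every -GFs array, a separation found in 6.06% of all genes. All 6 keratins passed the filter on detection, KRT19 only through the BMP4 group in which it is high, since it was detected on 2 of the other 15 arrays. KRT14 was detected on 3 arrays outside that group. A gene kept in this way had to differ, so the counts that hold KRT19 are a description, and without it 2 of 5 keratins were called. The median change of the 6 was 1.27 on the log2 scale, against -0.0035 over all genes.

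KRT8, the type II chain of the first embryonic pair, read 9.53, 9.55 and 10.27 in -GFs and 10.52, 11.46 and 11.77 with BMP4. All 3 BMP4 arrays were above the -GFs arrays, by the narrow gap between -GFs replicate 3 and BMP4 replicate 1. Its change was 1.47 ± 0.348 (SE, adjusted p 0.0649 by limma), a fold of 2.77. KRT18, its type I partner, read 8.15, 8.89 and 9.47 in -GFs and 9.49, 10.17 and 10.16 with BMP4. Here too the groups did not overlap, with the gap again between replicate 3 of -GFs and replicate 1 of BMP4. The change of KRT18, 1.10 ± 0.321 (SE), passed the fold threshold but not the adjusted p (0.138). With the replicate number as a block it was called at the same change (adjusted p 0.00195), as it was without -GFs replicate 3 (1.42) or with a background offset of 50 (1.04).

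KRT19, the type I chain that joins KRT8 in simple epithelia, read 5.61, 5.47 and 6.57 in -GFs, where only replicate 3 was detected, and 6.60, 7.76 and 7.60 with BMP4. Replicate 3 of -GFs and replicate 1 of BMP4 were nearly level. The change was 1.43 ± 0.310 (SE, adjusted p 0.0432). KRT7 read 7.65, 7.76 and 7.53 in -GFs and 8.30, 8.73 and 8.20 with BMP4. Its groups stood clear of each other, with a change of 0.76 ± 0.224 (SE, adjusted p 0.145) that was not called.

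KRT14, the basal chain of stratified epithelia, read 5.98, 5.39 and 5.43 in -GFs, where only replicate 1 was detected. With BMP4 it read 6.74, 7.87 and 8.67, and all 3 arrays were detected. The lowest BMP4 array was in the same replicate set as the highest -GFs array. Its change of 2.16 ± 0.367 (SE, adjusted p 0.012) was the largest of the 6. KRT17, the other surface ectoderm chain, read 8.11, 7.64 and 8.13 in -GFs and 8.26, 7.18 and 8.95 with BMP4. The BMP4 arrays of KRT17 lay on both sides of the -GFs arrays, and its change was 0.17 ± 0.291 (SE, adjusted p 0.931, 95% interval -0.45 to 0.79).

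**Figure D2:**
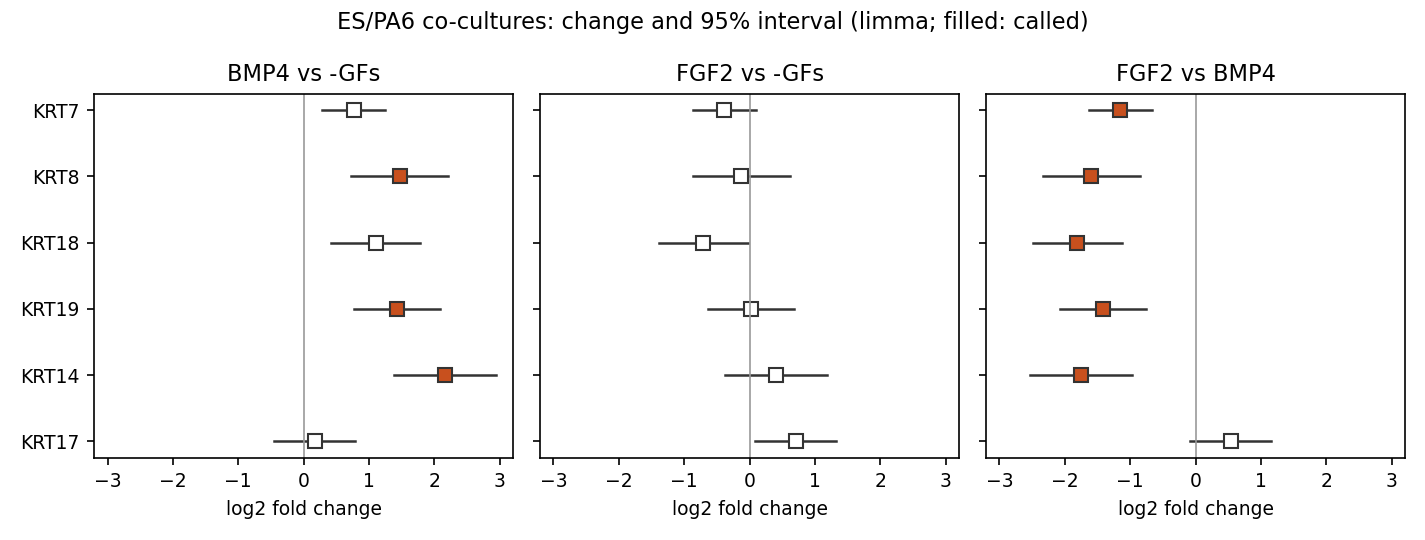
Log2 fold change (x axis) of each keratin in 3 comparisons of the ES/PA6 co-cultures, with the 95% interval of the limma fit as a line. Filled squares were called. KRT14, KRT8 and KRT19 are filled for BMP4 vs -GFs, none for FGF2 vs -GFs, and all but KRT17 for FGF2 vs BMP4, on the negative side.

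Within the replicate sets, BMP4 minus -GFs was positive in 3 of 3 sets for every keratin but KRT17. For KRT14 the differences of sets 1, 2 and 3 were 0.76, 2.48 and 3.24. For KRT8 they were 0.99, 1.91 and 1.50, and for KRT19 0.98, 2.30 and 1.02. The KRT18 differences were 1.34, 1.28 and 0.69, and those of KRT7 were 0.65, 0.97 and 0.67. KRT17 gave 0.15, -0.46 and 0.81. Set 2 thus held the largest difference for KRT7, KRT8 and KRT19, set 3 for KRT14 and set 1 for KRT18.

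The calls for BMP4 vs -GFs depended on few arrays. KRT8 lost its call with no filter on dim probes (adjusted p 0.102), with array weights (0.1004) and at a threshold of 0.05. It also lost it when -GFs replicate 1 (1.34), -GFs replicate 2 (1.35), BMP4 replicate 2 (1.36) or BMP4 replicate 3 (1.21) was left out. KRT19 lost its call with the same 4 omissions (1.30, 1.22, 1.21 and 1.29) and, at 0.77 and 0.78, under both normalizations that skip background correction. KRT14 kept its call when any 1 array was left out. With the whole of replicate set 2 left out, none of the 6 was called (adjusted p 0.214 for KRT14, 0.494 for KRT8 and 0.485 for KRT19). With the PA6 arrays taken out of the fit none was called either (adjusted p 0.189, 0.267 and 0.296 for KRT14, KRT8 and KRT19). KRT14 and KRT19, below detection on the PA6 arrays, had a smaller SD there than in the co-cultures.

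**Figure D3:**
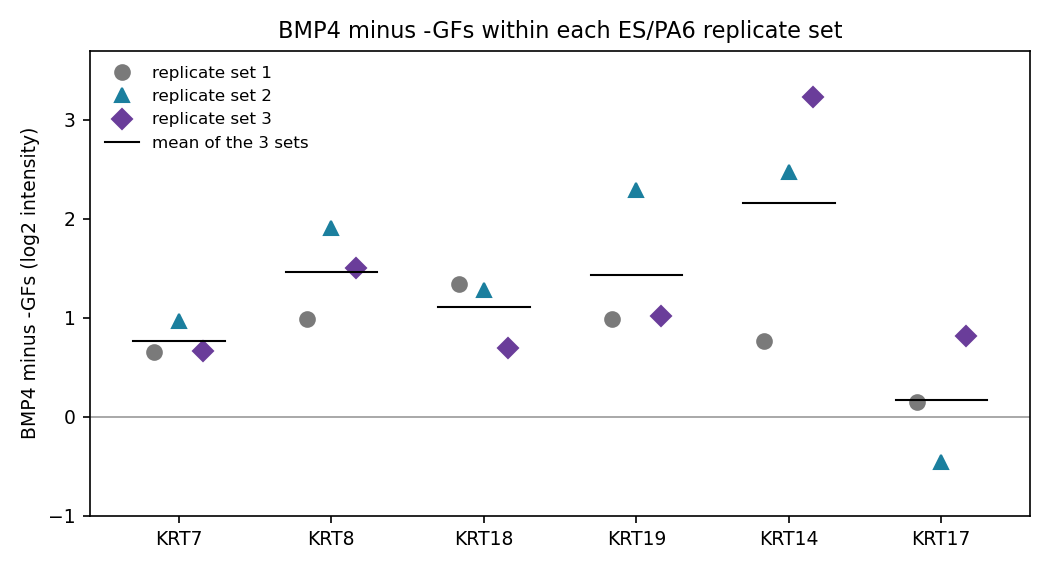
BMP4 minus -GFs within each ES/PA6 replicate set (y axis, log2 intensity) for each keratin (x axis). Symbols are the 3 replicate sets and the line is their mean. All points lie above 0 except set 2 of KRT17 (-0.46), and the sets spread most for KRT14, from 0.76 to 3.24.

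FGF2 vs -GFs in the co-cultures, which shares its -GFs arrays with the BMP4 comparison, gave 0 of 6 called keratins against a background of 3.34% by limma. At an unadjusted p under 0.05 there were 2, KRT17 and KRT18. KRT17 read 8.77, 8.43 and 8.80 with FGF2, above all 3 -GFs arrays, and its change was 0.70 ± 0.291 (SE, adjusted p 0.202). Over all genes, 9.86% had their FGF2 arrays wholly above the -GFs arrays. KRT18 read 7.44, 8.13 and 8.81 with FGF2, and only its FGF2 replicate 3 reached into the -GFs range, with a change of -0.71 ± 0.321 (adjusted p 0.257). Within the sets its differences were -0.71, -0.76 and -0.66, so it was lower with FGF2 in 3 of 3 sets. Without -GFs replicate 1 or FGF2 replicate 3, KRT18 was called lower (-1.05 in both fits).

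The other 4 moved less with FGF2. KRT7 read 7.22, 7.16 and 7.39, below all 3 -GFs arrays, with a change of -0.39 ± 0.224 (adjusted p 0.419). A share of 9.43% of all genes had FGF2 arrays wholly below -GFs. KRT8 read 9.08, 9.70 and 10.19 (change -0.13, 95% interval -0.86 to 0.61), and KRT19 read 5.41, 5.91 and 6.38 (0.02, -0.64 to 0.67). Both groups overlapped -GFs. KRT14 read 6.60, 6.06 and 5.37, with a change of 0.41 (95% interval -0.37 to 1.19), and was detected on the first 2 of these arrays.

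The growth factors were then set against each other. In FGF2 vs BMP4, 5 of 6 keratins were lower with FGF2, against 1.03% of all genes, and the exception was KRT17. KRT19, kept by the filter through its BMP4 arrays alone, is 1 of the 5. The change was -1.81 ± 0.321 (SE) for KRT18 (adjusted p 0.00316), -1.75 ± 0.367 for KRT14 (0.00981), -1.59 ± 0.348 for KRT8 (0.0129), -1.42 ± 0.310 for KRT19 (0.0129) and -1.15 ± 0.224 for KRT7 (0.00633). In all 5, every FGF2 array lay below every BMP4 array, which held for 9.1% of genes. KRT17 was 0.54 ± 0.291 higher with FGF2 (adjusted p 0.375, 95% interval -0.08 to 1.15), and its groups overlapped. Against the shared -GFs arrays, KRT18 stood at -0.71 with FGF2 and at 1.10 with BMP4. KRT8, KRT14, KRT18 and KRT19 were called without any 1 array, and KRT7 fell short of the fold threshold without BMP4 replicate 2 (-0.99). The KRT14 groups nearly met, with a difference of -0.14 within replicate set 1. With only the co-culture arrays KRT14 and KRT19 were not called. KRT7 and KRT19 also fell short of it where background correction was skipped (-0.81 and -0.76 with quantile normalization), and KRT7 also with median scaling (-0.995) and an offset of 50 (-0.998). Without replicate set 2 only KRT18 was called, and without set 3 the call of KRT14 was lost (-0.98). Adipocyte genes were lower in the same comparison, 4 of 6 tested, with a median of -2.63 over the 6. ADIPOQ stood at -5.83 (adjusted p 7.74e-05), CFD at -4.76 and PPARG at -1.50, and CIDEC was at least 8.90-fold lower. PPARG was lost without FGF2 replicate 3 or BMP4 replicate 2, and its further probes gave -1.54 and -0.98. All 6 adipocyte genes were also lower with FGF2 than with BMP4 in PA6 alone. There KRT7 was detected on 1 of 3 FGF2 and 2 of 3 BMP4 arrays, and the other 5 keratins on none. Any part of adipocyte genes in the keratin differences was not tested.

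Whether BMP4 moved the keratins differently in the 2 culture types was tested as the difference of its effects. For KRT14 the BMP4 change was 2.04 ± 0.520 (SE) larger in ES/PA6 than in PA6 (adjusted p 0.125), for KRT8 1.53 (0.254), for KRT19 1.43 (0.217) and for KRT18 1.10 (0.419). None of the 6 passed (0 by limma, 4 at an unadjusted p under 0.05), where 0.559% of genes did. With the replicate number as a block 1.85% of genes passed, and 3 of the 6 keratins, namely KRT18 (adjusted p 0.0193), KRT19 (0.0313) and KRT8 (0.0441). KRT14 and KRT19 passed without ES/PA6 BMP4 replicate 1 (2.55 and 1.79), and KRT19 without ES/PA6 -GFs replicate 3 (1.78). KRT19 was kept by the filter through its ES/PA6 BMP4 arrays alone, so its passes and the counts that hold it are a description. For FGF2 the same test gave 0 of 6 (1 at an unadjusted p under 0.05), against 7.39% of genes. These differences include PA6 groups below detection, whose changes are not measured.

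Of 49 further keratin names on the array, 12 were detected on 3 or more arrays and tested, and 0 of the 12 were called for BMP4 vs -GFs in the co-cultures by limma (2 at an unadjusted p under 0.05, median change -0.04). Of all genes 0.76% were called there in either direction, so a count of 0 among 12 is near the background, and the 12 were not tested against the 6. With FGF2, 2 were called higher. KRT42, a type I keratin, rose by 1.58 ± 0.252 (SE; limma adjusted p 0.00106), and its 2 further probes gave 1.84 and 1.61. KRT16, which is made in stressed and activated epidermis, stayed below detection on the -GFs arrays and exceeded that limit at least 1.59-fold with FGF2 (adjusted p 0.000591), a call not made without background correction or with an offset of 50. KRT16 was detected on the 3 FGF2 co-culture arrays and on no other, so the filter kept it only through the group in which it is high. In ES/PA6 vs PA6 in -GFs, 4 of the 12 were higher, where 19.4% of all genes were, and 1 was lower. Among the 4 were KRT42 (at least 8.04-fold) and the probe named KRT1-12 (at least 3.74-fold). The KRT42 bound is that of its brightest probe (4.22 on the log2 scale), and its further probes gave 4.25 and 2.06. KRT1-12 is an older name of KRT12, whose own probe is also among the 12. A probe under the name KRT2-8, an older name of KRT8, was not detected on any of the 18 arrays and does not carry the KRT8 name.

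Desmosomes are the junctions on which keratin filaments end. Beside the list counts below, 0.31% of all genes were called higher for BMP4 vs -GFs in the co-cultures. For FGF2 vs -GFs 3.34% were called in either direction, and for FGF2 vs BMP4 1.03% were called lower. Between ES/PA6 and PA6 in -GFs, 19.4% were called higher. Of 12 desmosome genes, 6 were tested, and with BMP4 only DSP, the plakin that ties keratin to the junction, was called. Below detection on all 3 -GFs arrays, it gained at least 2.16-fold with BMP4 (adjusted p 0.00628), though not called without background correction, with an offset of 50 or with the co-culture arrays alone. DSP was also detected on all 3 FGF2 co-culture arrays (mean 6.24 against 5.63 in -GFs, adjusted p 0.110). DSG2, a desmosomal cadherin, stood at 0.97 with BMP4 (adjusted p 0.0129), below the fold threshold. With FGF2, DSG2 rose by 1.05 ± 0.169 (SE; adjusted p 0.00111), while its second probe gave 0.28. The plakophilin PKP3 rose by 1.06 ± 0.273 with FGF2 (adjusted p 0.0274). The PKP3 call was lost without replicate 2 of either group, the DSG2 call without -GFs replicate 2 or FGF2 replicate 3, and both where background correction was skipped. In FGF2 vs BMP4, 0 of the 6 desmosome genes were called by limma (3 at an unadjusted p under 0.05).

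Epithelial adhesion genes divided differently. With BMP4, 1 of 9 tested genes rose, the tight junction claudin CLDN4 (1.07 ± 0.197 SE, adjusted p 0.0192), and not without -GFs replicate 2 or BMP4 replicate 3. With FGF2, 3 of 9 fell. ESRP1 (on the array as RBM35A), a splicing factor of epithelial cells, fell by 2.18 ± 0.169 (adjusted p 1.08e-06). The claudins CLDN6 and CLDN3 fell by 1.58 (adjusted p 8.66e-05) and 1.18 (adjusted p 0.0519). CLDN3 lost this call without -GFs replicate 3, FGF2 replicate 1 or FGF2 replicate 2. In ES/PA6 vs PA6 in -GFs, 8 of the 9 adhesion genes were higher, ESRP1 at least 45.3-fold and CLDN6 at least 34.8-fold. Of the 6 desmosome genes 4 were higher, with PKP2 at least 24.4-fold and DSG2 at least 5.66-fold by their brightest probes. Further PKP2 probes gave 5.33 and 3.13 against 5.82 on the log2 scale, and the second DSG2 probe gave 0.10. ESRP1, CLDN6 and CLDN3 were lower in FGF2 vs BMP4, at -2.39, -2.05 and -1.50 in that order.

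Of 13 tested transcription factors of surface ectoderm, 5 rose with BMP4 and 0 fell, with a median change of 0.69 over the 13. Over all genes 0.31% were called higher and the median was -0.0035. TFAP2A, an AP-2 factor, rose by 1.70 ± 0.430 (SE; adjusted p 0.0815), though its groups overlapped, and its second probe gave 1.21. TRP63, the p63 factor of stratified epithelium, rose by 1.28 (adjusted p 0.0834), and TFAP2C by 1.26 (adjusted p 0.0196). ELF3 rose by 1.07 (adjusted p 0.00498), where its further probes gave 1.22 and 0.28, and the grainyhead factor GRHL3 by 1.07 (adjusted p 0.00634). TFAP2A and TRP63 were each lost without -GFs replicate 1 or 2 or BMP4 replicate 2 or 3, as KRT8 and KRT19 were, and TRP63 also without -GFs replicate 3. TFAP2C and ELF3 were lost without -GFs replicate 2, and ELF3 and GRHL3 without BMP4 replicate 3. TRP63, ELF3 and GRHL3 were lost where background correction was skipped, and all 5 with the co-culture arrays alone. TRP63 was detected on all 9 PA6 arrays as well, where TFAP2A, TFAP2C, ELF3 and GRHL3 were detected on none. Its PA6 means were 8.12 in -GFs, 8.67 with FGF2 and 8.45 with BMP4. In the co-cultures they were 7.52 in -GFs and 8.80 with BMP4, so the TRP63 signal is not of ES cells alone.

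In ES/PA6 vs PA6 in -GFs, 8 of the 13 were higher, led by TFAP2C (at least 26.7-fold) and GRHL2 (at least 7.29-fold), and 2 were lower. That bound of TFAP2C is for its brightest probe (5.86 on the log2 scale), and its further probes gave 3.92 and 2.26. With FGF2, 2 of these 13 genes rose and 1 fell. GRHL3 rose by 1.75 ± 0.167 (SE, adjusted p 9.02e-06) and TFAP2C by 1.48 (adjusted p 0.00104), and GRHL2 fell by 1.77 (adjusted p 6.4e-05). In FGF2 vs BMP4, TFAP2A (-1.59), TRP63 (-1.25) and GRHL2 (-1.87) were lower with FGF2. The second TFAP2A probe gave -0.97. The calls of TFAP2A and TRP63 there were lost without FGF2 replicate 1, BMP4 replicate 2 or BMP4 replicate 3.

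**Figure D4:**
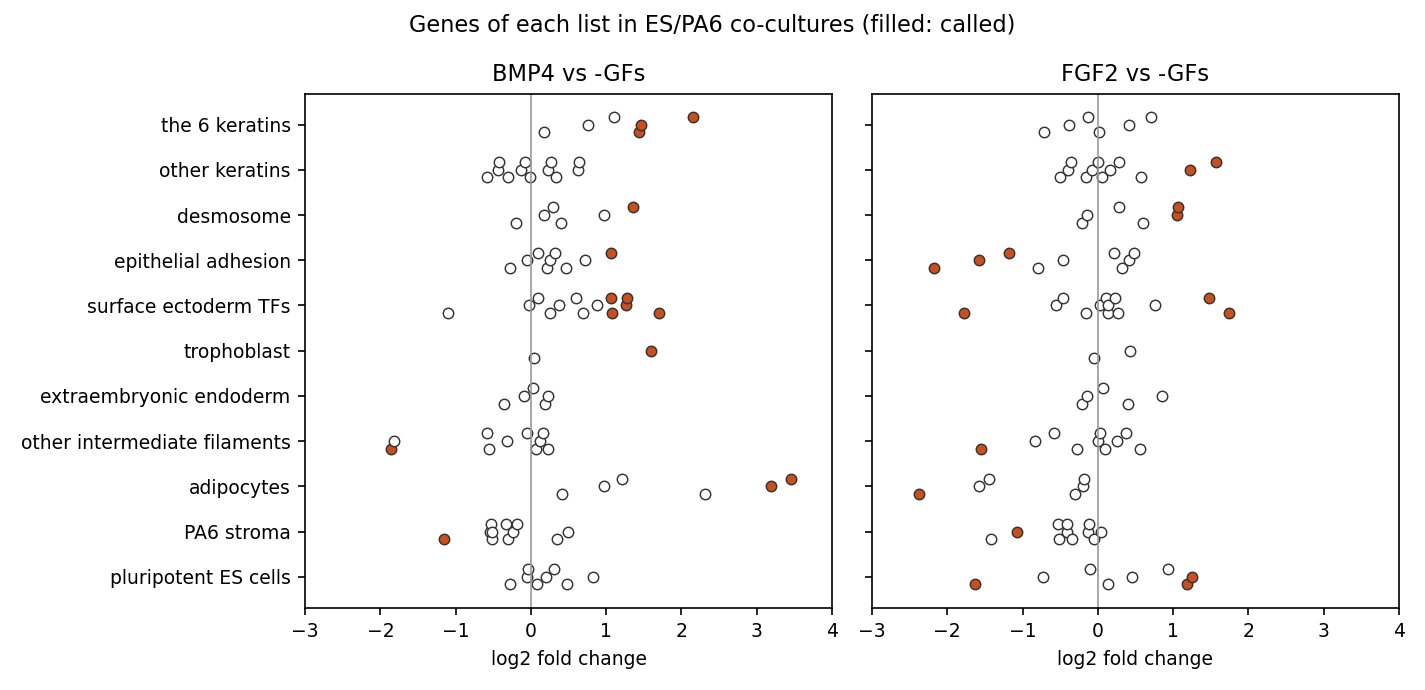
Log2 fold change (x axis) of every tested gene of each list (rows) for BMP4 vs -GFs and FGF2 vs -GFs in the ES/PA6 co-cultures. Filled points were called. With BMP4 the filled points of the keratins, desmosome, adhesion and surface ectoderm factors are all on the positive side, and with FGF2 filled points lie on both sides.

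Markers of other cells that make these keratins or share the wells were read beside them. Trophoblast also makes KRT7, KRT8, KRT18 and KRT19. Of 9 trophoblast genes 7 were detected on fewer than 3 arrays, among them the defining CDX2, ELF5, EOMES and TPBPA. PLAC1 rose with BMP4 by 1.60 ± 0.263 (SE, adjusted p 0.0104), a call lost where background correction was skipped, and ASCL2 stood at 0.03. The mean of the 2 tested genes ran from 5.75 to 6.36 in -GFs, 6.14 to 6.24 with FGF2 and 6.52 to 7.17 with BMP4 across arrays, and its part in the keratin result was not tested. Extraembryonic endoderm makes KRT8, KRT18 and KRT19 too. Of its 11 genes 5 were tested and 0 called for BMP4 or FGF2 (0 of 5 by limma, and 0 at an unadjusted p under 0.05). Array means of the 5 were 7.68 to 7.86 in -GFs, 7.75 to 8.10 with FGF2 and 7.50 to 8.06 with BMP4. In PA6 alone the same means were 8.07 to 8.10, 7.96 to 8.05 and 8.16 to 8.24. The list thus also reads the stroma, and any part of extraembryonic endoderm in the keratin result was not tested. AFP, TTR, FOXA2 and GATA4 were detected on fewer than 3 arrays.

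Of 6 tested adipocyte genes, which PA6 cells can express, 2 were called with BMP4 in the same wells, both higher. ADIPOQ and CFD rose by 3.45 (adjusted p 0.0214) and 3.19 (adjusted p 0.0596), and the array means of the 6 tested genes were 7.26 to 8.87 in -GFs, 6.61 to 7.23 with FGF2 and 9.07 to 11.17 with BMP4. CFD lost its call when -GFs replicate 1, -GFs replicate 3 or BMP4 replicate 2 was omitted. With FGF2, ADIPOQ fell by 2.37 (adjusted p 0.0413), a call lost without -GFs replicate 2 or FGF2 replicate 3. In PA6 alone with BMP4 the same means were 11.17 to 12.22. Of those arrays, 2 of 3 detected KRT7 and none detected the other 5 keratins. Any part of adipocyte genes in the keratin result was not tested. The PA6 stroma list had 1 call, COL3A1, lower with BMP4 by 1.16 (adjusted p 0.082) and not called in 5 of the 6 fits that left out 1 array of these groups. The second COL3A1 probe gave -1.30 (limma adjusted p 0.402 over all kept probes). Array means of the stroma list were 11.25 to 11.59 in -GFs and 11.05 to 11.31 with BMP4. The pluripotent ES cell list had 0 of 8 called with BMP4 by limma (1 at an unadjusted p under 0.05), and its means ran from 11.82 to 12.41 and from 12.09 to 12.45. With FGF2, NANOG (1.25) and ZFP42 (1.19) rose and LIN28A fell by 1.63. NANOG was lost without -GFs replicate 2 or FGF2 replicate 1 or 3, and ZFP42 without -GFs replicate 2 or FGF2 replicate 1 or 2. Of 10 other intermediate filament genes tested, the neurofilament NEFM fell with BMP4 to below detection. By its brightest probe it was at least 2.62-fold lower (adjusted p 0.0827). That call was lost without -GFs replicate 2 or 3 or any 1 BMP4 array. The second NEFM probe gave -1.08 (limma adjusted p 0.132 over all kept probes). INA, another neuronal filament, fell by 1.56 with FGF2 (adjusted p 0.000653), and THY1 of the stroma list by 1.08, the latter lost without -GFs replicate 2, FGF2 replicate 1 or with median scaling.

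Between the culture types in -GFs these other lists differed in direction, and some held genes of both directions. Of the 8 pluripotency genes DPPA5A stood highest, at 9.59, and UTF1 was at least 56.4-fold higher in the co-cultures. Of the stroma genes POSTN was at least 2.48-fold lower there and COL1A2 stood at -1.95. Of the 6 adipocyte genes 4 were lower, with CIDEC at -3.98 and CFD at -3.29. Of the 10 other filament genes 7 were higher and 3 lower, with the lamin LMNB1 at 4.25 and the neural filament NES at least 5.77-fold higher. Second probes gave 2.52 for LMNB1 and 1.38 for NES, whose main probe stood at 3.89. Of the 5 extraembryonic endoderm genes AMN was higher, at least 1.74-fold and not called where background correction was skipped, and 2 were lower, among them GATA6 at -2.49.

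The likeness of patterns over the 9 co-culture arrays was described for the 4 keratins detected on all of them, by Pearson's r with every tested gene. The arrays share growth factor groups and replicate sets, so these values are descriptions. For KRT8 the most alike gene of all was KRT19 (r = 0.980), then TFAP2A (0.960) and GATA3 (0.944), a surface ectoderm and trophoblast factor. KRT19 was detected on 1 of 3 -GFs, 1 of 3 FGF2 and 3 of 3 BMP4 co-culture arrays. GATA3 was below detection on every -GFs and FGF2 co-culture array. With BMP4 it stood at least 1.40-fold above -GFs (limma adjusted p 0.191, not called), and it was also detected in each PA6 group. Both values of r thus rest partly on arrays below detection. KRT18 followed KRT8 at 0.926. For KRT7 the most alike genes were AQP7 (0.979), a glycerol channel of fat, ALDH1A7 (0.978) and GAS6 (0.970). KRT18 was nearest to LOC381255 (0.981), NUCKS1 (0.962) and GDPD2 (0.960). KRT17 was nearest to B930008G03RIK (0.971) and USP39 (0.955), and its r with the other 5 keratins ran from -0.52 with KRT7 to 0.05 with KRT14.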

How the data were processed

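The authors prepared biotin-labelled cRNA from total RNA, hybridised it to Illumina MouseWG-6 v2.0 arrays and read them with GenomeStudio 2011.01. The deposited intensity values are non-normalized and linear (55.5 to 72879), and each has a deposited detection p-value against negative control beads. A further 5 stray shifted lines were left out. Arrays carry no counts, and their number limits the precision. Array pairs with identical values numbered 0.

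Background correction, quantile normalization and log2 followed neqc of limma 3.58.1 (R 4.3.3; offset 16), which understates changes of dim genes. The study's methods name a cubic spline instead, which was an alternative. Probes detected (p under 0.05) on at least 3 of 18 arrays were kept, and the probe with the largest mean stood for its gene. Genes below detection on all PA6 arrays were kept through co-culture arrays alone, so their counts in ES/PA6 vs PA6 are descriptions. A single limma fit of 6 group means gave every comparison. A call needed a Benjamini-Hochberg adjusted p under 0.1 and a log2 fold change beyond 1, after the study's methods. SEs, intervals and p-values rest on a spread between wells pooled over all 18 arrays of both culture types. KRT14, KRT17, KRT18 and KRT19 spread less in every PA6 group, below detection, than in any co-culture group. For KRT14 the SD was 0.07 to 0.24 in PA6 and 0.33 to 0.97 in ES/PA6. Pooling understates the spread between co-culture wells for these genes. The script was tested on simulated data. Where a group had no detected array, a bound was set per array: the dimmest probe detected there, or the probe itself if brighter, averaged over the group and compared with the bright group's mean.

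Same-numbered ES/PA6 arrays deviated together from their group means (r = 0.325 to 0.521 over 9 pairs), so the numbers pair those arrays, as the labels' 1 well per condition also has it (PA6: 0.0628 to 0.164). The methods name no block, so the block was an alternative. Other alternatives were other normalizations, offset, filters, probe choice, variance models, thresholds, only 1 culture type, and leaving out each array. Leaving out a whole ES/PA6 replicate set was added after seeing the data. The members, lists and rules were chosen with earlier results of these data known. Every member probe is reported. List genes are named where called in an ES/PA6 comparison with -GFs (at most 4 a list) or between culture types in -GFs (at most 2 a list). The 3 genes most alike are named for each keratin detected on all 9 co-culture arrays, of which 2 are printed for KRT17. Genes named for FGF2 vs BMP4, GRHL3 with BMP4 and DSG2 with BMP4 were chosen after their values were seen.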

Additional observations from a re-analysis of the deposited data

How the results depend on the processing

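Over the alternatives planned for the 6 keratins, 783 values kept their direction and side of the thresholds, 27 lost a call, 28 gained one and 10 turned direction. The replicate block within each culture type gave 4 called keratins for BMP4 vs -GFs in the co-cultures, with KRT18 added, and 3 for the difference of the BMP4 effects. It changed no other call of a keratin. For BMP4 vs -GFs in the co-cultures, 0 keratins were called with only the co-culture arrays or without replicate set 2, and 1 to 4 without 1 array each. For FGF2 vs -GFs the count was 0 to 1 without 1 array each. For FGF2 vs BMP4, 3 were called with quantile normalization and no background correction, 3 with the spline, 3 with only the co-culture arrays and 1 without replicate set 2. ES/PA6 vs PA6 with FGF2 had 6 with no fold threshold, where 72.7% of all genes were called. The difference of the BMP4 effects had 1 each with median scaling, an offset of 50, trend and robust, and array weights, 0 to 2 without 1 array each, 2 without replicate set 1 and 1 without replicate set 3. Requiring detection on all 18 arrays left no keratin to test. Where these counts moved, the cause was not tested.

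The values that turned direction were of uncalled changes. For FGF2 vs -GFs in the co-cultures, KRT19 ran from -0.23 to 0.36 without 1 array each, negative without -GFs replicate 1 (-0.12), -GFs replicate 2 (-0.19) or FGF2 replicate 3, and was -0.0174 with array weights and -0.20 without replicate set 2. KRT8 ran from -0.39 to 0.16, positive without -GFs replicate 3 (0.12) or FGF2 replicate 1, and was 0.0392 without replicate set 1. For BMP4 vs -GFs, KRT17 ran from -0.24 to 0.64, negative without BMP4 replicate 3, and was -0.15 without replicate set 3. KRT7 in PA6 ran from -0.0219 to 0.46, negative without -GFs replicate 3. The difference of the BMP4 effects for KRT17 ran from -0.25 to 0.63, negative without ES/PA6 -GFs replicate 2 (-0.0048) or BMP4 replicate 3, and was -0.17 without replicate set 3. The number of genes called for BMP4 vs -GFs in the co-cultures was 125, and ran from 10 with only those arrays to 215 with the block. KRT14 and KRT19 in -GFs and FGF2 were near the detection limit, and a change under 1 on the log2 scale cannot be called by the fold threshold: without it the count for BMP4 vs -GFs was 280.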
